A study of Mus musculus with 8 samples.

Results

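The 10 immediate early genes Fos, Fosb, Jun, Junb, Egr1, Atf3, Ier2, Dusp1, Nr4a1 and Zfp36 were examined in whole injured muscle of aged mice given recombinant interleukin 33 (rIL-33) or PBS. They were chosen by name, as a list of rapid response genes, with earlier results of these data known. They are 10 of the 19752 genes with a value. Each was read by 1 probe set, and all 10 passed the filter on dim genes with the mean of both treatment groups above it. The rIL-33 group (4 arrays) was given 2 µg of the cytokine into the peritoneal cavity on the days before and after injury, and the other group (4 arrays) carries the treatment label PBS, with no schedule stated. All mice were described as male C57BL/6 animals, 99 weeks of age by the sample labels and 22 months by the series text. The tibialis anterior muscle was frozen through contact with a cold metal probe for 8 s and collected on day 8 after that injury. A background label splits each treatment group: C57BL/6 for replicates 1 and 2, WT for replicates 3 and 4. How those labels differ was not stated, nor how the WT label relates to the described C57BL/6 strain. Whether every array holds RNA of its own mouse was not stated either, and p-values then describe the spread among the arrays, which may be technical.

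Immediate early genes are switched on from existing proteins, without new protein synthesis, when growth factors, cytokines, stretch or stress activate MAP kinase, calcium or cyclic AMP signalling. Fos, Fosb, Jun and Junb encode subunits of the dimeric transcription factor AP-1, Atf3 encodes a related leucine zipper factor, and Egr1 and Nr4a1 encode a zinc finger factor and an orphan nuclear receptor. Dusp1 and Zfp36 act as brakes: Dusp1 is a phosphatase that switches off MAP kinases, and Zfp36 (tristetraprolin) binds AU-rich elements and hastens the decay of unstable mRNAs. In skeletal muscle such genes respond to contraction and injury, and they are expressed in many of the cell types that a whole muscle holds.

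Promoter sequence is shown for 5 genes that represent the contrasting patterns below: Fos, with the lowest difference, Junb, Dusp1 and Zfp36, and Nr4a1, with the highest. Each stretch is the 200 bases before the start of transcription, 5′ to 3′ on the gene's strand, from RefSeq (GRCm38.p6). The Nr4a1 stretch lies inside the gene's full span, before the start of a shorter transcript. Capitals mark the half-site of the cyclic AMP response element (CRE; TGACG, or CGTCA on the other strand), the full CRE (TGACGTCA, in which a half-site of each strand overlaps) and the CArG box, the site of serum response factor.
Fos (chr12:85473690-85473889, plus strand): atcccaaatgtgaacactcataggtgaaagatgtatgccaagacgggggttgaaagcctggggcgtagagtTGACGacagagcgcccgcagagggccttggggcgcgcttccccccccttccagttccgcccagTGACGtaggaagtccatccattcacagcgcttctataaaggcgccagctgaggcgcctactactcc
Junb (chr8:84978749-84978948, minus strand): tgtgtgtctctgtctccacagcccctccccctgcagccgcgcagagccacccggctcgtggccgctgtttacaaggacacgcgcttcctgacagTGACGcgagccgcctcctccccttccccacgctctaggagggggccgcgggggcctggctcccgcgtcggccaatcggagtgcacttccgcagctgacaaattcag
Dusp1 (chr17:26508473-26508672, minus strand): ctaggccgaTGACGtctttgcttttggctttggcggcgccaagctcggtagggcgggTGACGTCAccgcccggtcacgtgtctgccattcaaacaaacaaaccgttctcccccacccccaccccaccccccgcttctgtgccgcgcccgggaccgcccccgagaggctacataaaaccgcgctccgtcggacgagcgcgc
Zfp36 (chr7:28379229-28379428, minus strand): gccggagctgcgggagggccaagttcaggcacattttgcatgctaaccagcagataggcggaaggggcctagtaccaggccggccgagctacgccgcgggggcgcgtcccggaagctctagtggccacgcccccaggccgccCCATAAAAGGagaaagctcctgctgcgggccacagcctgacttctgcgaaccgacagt
Nr4a1 (chr15:101266646-101266845, plus strand): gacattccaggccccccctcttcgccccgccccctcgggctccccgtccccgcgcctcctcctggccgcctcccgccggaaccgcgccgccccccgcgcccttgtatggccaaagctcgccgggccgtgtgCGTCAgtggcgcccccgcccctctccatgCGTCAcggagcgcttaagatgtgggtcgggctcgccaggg
Egr1 was left out of the promoter search, and Ier2 was not matched. Of the 8 genes searched, 6 held a CRE half-site in this window, against 15.7% of all 32851 promoter windows of the same length. Those 6 were Fos, Fosb, Junb, Atf3, Dusp1 and Nr4a1. The full CRE was found in Dusp1, from 143 to 136 bases before the start, and in 1.47% of all windows. The CArG box was found in Zfp36, from 58 to 49 bases before the start, and in 1.18% of all windows. These are matches of letters and not measured binding sites, and both the genes lower and the genes higher with rIL-33 held the half-site.

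Across the 8 arrays the median intensity ran from 222.6 to 232.2, and correlations between arrays over the 14814 genes tested ran from 0.965 to 0.994. On the tissue label, all 12 myofibre markers passed the filter on dim genes, and their mean level lay between 12.95 and 13.31 (log2 intensity). Markers of other tissues were not set against them. The arrays fell more by background label than by treatment, with 1392 of 14814 genes (9.40%) past the threshold between the labels and 1 (0.00675%) between the treatments in limma. The threshold is a p-value of 0.05 after Benjamini-Hochberg adjustment over all genes tested. Treatment values within each label are therefore given for the 10 genes, and counts within each label for the other lists. Levels and differences below are on the log2 scale of intensity, differences are rIL-33 minus PBS, each with its standard error (SE) from limma, and levels of different genes cannot be compared because each probe set has its own response.

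No immediate early gene passed the threshold between rIL-33 and PBS. By direction alone, 8 of the 10 had a lower mean with rIL-33 and 2, Atf3 and Nr4a1, a higher one, while 52.0% of all genes tested were lower. The median difference of the 10 was -0.13, against -0.0055 over all genes. The adjusted p-values in limma ran from 0.489 for Fos to 0.893 for Dusp1. At an unadjusted limma p under 0.05 stood 1 of the 10, Fos, where 5.24% of all genes were lower at that level. With the label as a block, 3 of the 10 stood there, Fos, Junb and Egr1, all lower, and 2244 genes (15.1%) in either direction. With single arrays left out the members at that level numbered 0 to 5. There were none without rIL-33 replicate 1 or 4, where 639 and 1698 of all genes stood there in either direction (1427 with all arrays). Without PBS replicate 3 they were Fos, Junb, Egr1, Dusp1 and Zfp36, among 1326 genes in either direction. None of the 10 separated the 2 groups without overlap, as 2.13% of all genes did on the lower and 2.44% on the higher side.

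**Figure D1:**
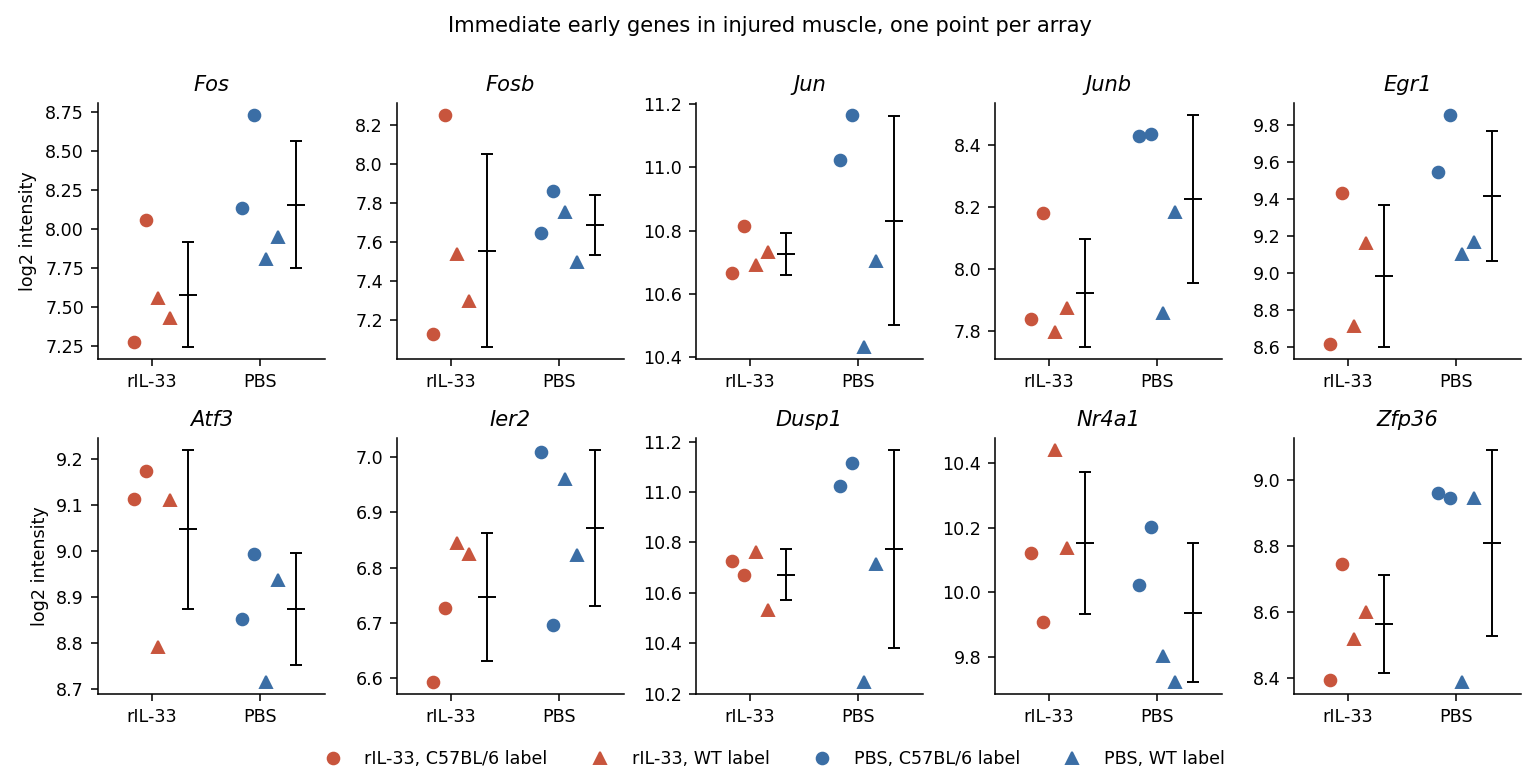
Log2 intensity of the 10 genes on each of the 8 arrays, rIL-33 left and PBS right, with circles for the C57BL/6 label and triangles for the WT label; the bars give mean and SD (n = 4). Every gene's groups overlap, and in Fos the rIL-33 arrays lie below the PBS arrays of the same label.

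Fos, the inducible AP-1 subunit that cannot bind DNA without a Jun partner, stood furthest from 0. It had 7.28, 8.06, 7.56 and 7.43 on rIL-33 arrays 1 to 4, against 8.13, 8.73, 7.81 and 7.95 on PBS arrays 1 to 4. The high rIL-33 array is replicate 2, and it alone lies above the lowest PBS arrays. The means were 7.58 ± 0.34 with rIL-33 and 8.16 ± 0.41 with PBS (SD, n = 4 each), a ratio of geometric mean intensities of 0.670. The difference was -0.58 (SE 0.21, 95% confidence interval -1.04 to -0.11, unadjusted p = 0.0202, limma adjusted p = 0.489). Only 0.392% of the genes tested had a difference as low or lower. The difference was -0.38 without PBS replicate 2. The unadjusted p in limma was 0.0595 without rIL-33 replicate 1 and 0.0507 without rIL-33 replicate 4.

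Fosb, its closest relative among the 10, did not follow on every array. It stood at 7.13, 8.25, 7.54 and 7.30 on the rIL-33 arrays and at 7.65, 7.86, 7.75 and 7.50 on the PBS arrays. The rIL-33 arrays held both the lowest and the highest value of the 8, and their SD was 0.49 against 0.15 with PBS. The difference of -0.13 (SE 0.21) had an interval of -0.59 to 0.32, and it was 0.0072 without rIL-33 replicate 1.

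Of the Jun subunits, Junb was the one nearer to Fos in its difference. Junb, which can restrain the activity of Jun within AP-1, had 7.84, 8.18, 7.80 and 7.88 on the rIL-33 arrays, against 8.43, 8.43, 7.86 and 8.18 on the PBS arrays. Both PBS arrays of the C57BL/6 label lay above all others. The difference was -0.30 (SE 0.14, interval -0.61 to 0.00, unadjusted p = 0.0502, limma adjusted p = 0.517). Jun, the AP-1 subunit able to form pairs with itself, ran at 10.67, 10.82, 10.69 and 10.73 with rIL-33 and at 11.02, 11.17, 10.43 and 10.70 with PBS. The rIL-33 arrays sat close together (SD 0.07) inside the wide span of the PBS arrays (SD 0.33). Its difference was -0.11 (SE 0.14), and 0.0063 without PBS replicate 2.

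Egr1, a zinc finger factor induced through serum response factor, resembled Fos. It measured 8.62, 9.44, 8.72 and 9.17 with rIL-33 and 9.55, 9.86, 9.11 and 9.17 with PBS. Again rIL-33 replicate 1 was the lowest array and PBS replicate 2 the highest. The difference was -0.44 (SE 0.21, interval -0.90 to 0.02, unadjusted p = 0.0613, limma adjusted p = 0.525), and 1.20% of the genes tested were as low or lower. Without PBS replicate 2 it was -0.29. Ier2, a small nuclear protein gene, had 6.59, 6.73, 6.84 and 6.82 with rIL-33 and 7.01, 6.70, 6.96 and 6.82 with PBS. These levels lie close to the dim cut-off of 6.65, with rIL-33 replicate 1 below it, and the difference was -0.13 (SE 0.09).

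Both brakes had lower means with rIL-33, with PBS replicate 3 apart from the other PBS arrays. Zfp36 had 8.39, 8.75, 8.52 and 8.60 with rIL-33 and 8.96, 8.94, 8.39 and 8.95 with PBS. PBS replicate 3 was the lowest of the 8 arrays, while the other 3 PBS arrays lay above all rIL-33 arrays. The difference was -0.25 (SE 0.14, interval -0.55 to 0.06, limma adjusted p = 0.571), and -0.39 without PBS replicate 3. Dusp1 had 10.72, 10.67, 10.76 and 10.53 with rIL-33 and 11.02, 11.12, 10.24 and 10.71 with PBS. As with Jun, PBS arrays took the highest and the lowest places. Its difference was -0.10 (SE 0.17), -0.28 without PBS replicate 3 and 0.0115 without PBS replicate 2.

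Nr4a1 and Atf3 had higher means with rIL-33. Nr4a1 (Nur77), a nuclear receptor gene induced in muscle by contraction and adrenergic signals, had 10.12, 9.91, 10.44 and 10.14 with rIL-33 and 10.02, 10.20, 9.80 and 9.72 with PBS. The highest array was rIL-33 replicate 3 and the lowest PBS replicate 4, both of the WT label. The difference was 0.22 (SE 0.13, interval -0.08 to 0.51, limma adjusted p = 0.610), and 0.12 without rIL-33 replicate 3. Atf3, a stress-induced factor that acts mostly as a repressor, had 9.11, 9.17, 8.79 and 9.11 with rIL-33 and 8.85, 8.99, 8.71 and 8.94 with PBS. Only rIL-33 replicate 3 lay among the PBS arrays. The difference was 0.17 (SE 0.10, interval -0.05 to 0.40, limma adjusted p = 0.589), and 0.26 without that array.

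Within the C57BL/6 label Fos, Jun, Junb, Egr1, Dusp1 and Zfp36 all had lower values on both rIL-33 arrays than on both PBS arrays. There 9 of 10 genes were lower with rIL-33 (54.7% of all genes), and 6 had both rIL-33 arrays below both PBS arrays (19.0%). Those 6 were Fos, Jun, Junb, Egr1, Dusp1 and Zfp36, while Atf3 was the 1 gene higher without overlap (14.0%). At an unadjusted limma p under 0.05 stood 5 of the 10, all lower: Fos, Jun, Junb, Egr1 and Dusp1 (2.57% of all genes). None passed the adjusted threshold, nor did any other gene in this contrast (0%), with an adjusted p of 0.947 for each of the 5 in limma. The differences were -0.77 for Fos (SE 0.25), -0.68 for Egr1 (SE 0.25), -0.42 for Junb (SE 0.14), -0.38 for Zfp36 (SE 0.18), -0.37 for Dusp1 (SE 0.15) and -0.35 for Jun (SE 0.12). With 2 arrays a side each value leans on single arrays. None of those 5 stayed at that level without rIL-33 replicate 1 or without PBS replicate 2, where Fosb (higher) and Ier2 (lower) were the 1 gene at it in turn. Dusp1 also left it without rIL-33 replicate 2 or PBS replicate 1. Without rIL-33 replicate 1 the Fos difference was -0.38 and that of Egr1 -0.27, and without rIL-33 replicate 2 they were -1.15 and -1.08.

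Within the WT label the values were mixed in direction. There 6 of 10 genes were lower (49.5% of all genes), and Fos was the 1 gene lower without overlap (18.6%), by -0.39 (SE 0.25). Nr4a1 was the 1 gene higher without overlap (27.0%), by 0.53 (SE 0.13), with means of 10.29 with rIL-33 and 9.76 with PBS. It was also the 1 member at an unadjusted limma p under 0.05 on the higher side (8.01% of all genes), with an adjusted p of 0.402. The limma threshold was passed by 7 genes in this contrast (0.0473%), none of them among the 10, and by 3 to 25 genes with single arrays left out. Jun and Dusp1 were higher there by 0.14 (SE 0.12) and 0.17 (SE 0.15). Across both labels, Fos, Fosb, Junb, Egr1, Ier2 and Zfp36 kept a lower mean, 6 of 10 against 33.6% of all genes, with Ier2 turning to 0.0064 within WT after quantile normalization and 0.0155 after cyclic loess. Fos alone was lower without overlap in both labels, as 4.90% of all genes were.

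**Figure D2:**
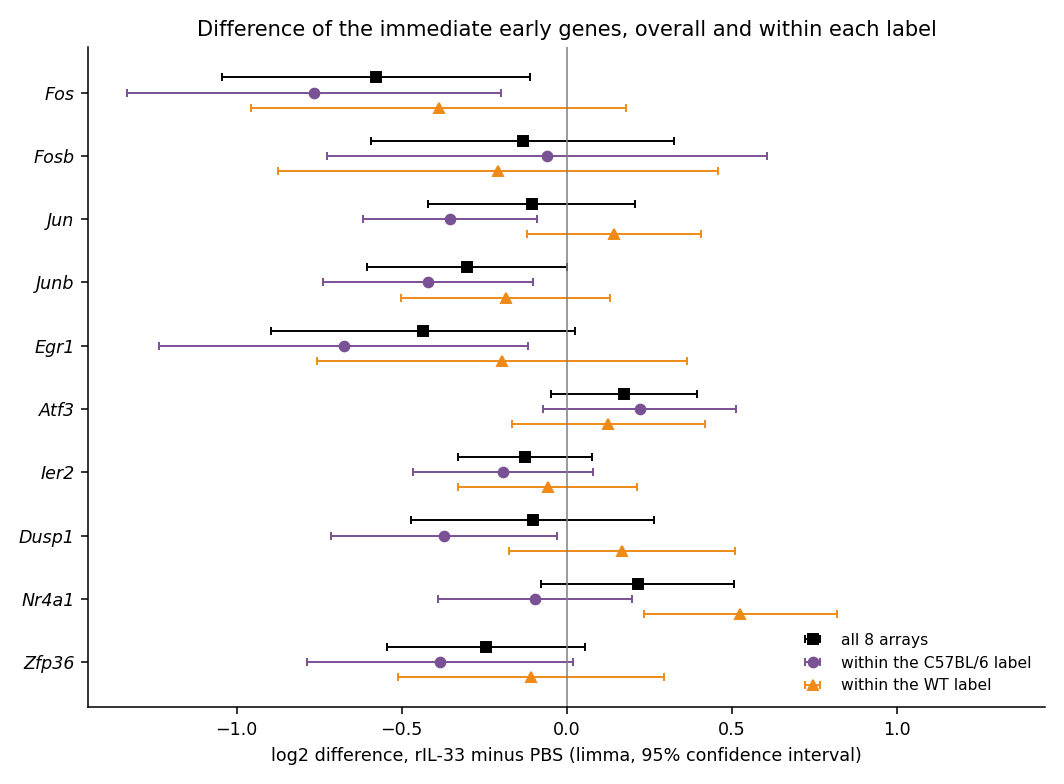
Log2 difference, rIL-33 minus PBS, of each gene over all 8 arrays (squares), within the C57BL/6 label (circles) and within the WT label (triangles), with 95% confidence intervals from limma. Fos lies below 0 in all 3, whereas Jun, Dusp1 and Nr4a1 change side between the labels.

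The test of the difference between the labels gave 0 genes past the adjusted threshold in limma (0%), and the 10 all had an adjusted p of 0.999. The treatment difference was lower within C57BL/6 than within WT in 8 of the 10 (55.7% of all genes). At an unadjusted p under 0.05 stood 3, all on this side (2.09% of all genes). Nr4a1 differed by -0.62 between the labels (SE 0.18, interval -1.04 to -0.21), Dusp1 by -0.54 (SE 0.21, interval -1.02 to -0.05) and Jun by -0.50 (SE 0.16, interval -0.87 to -0.13). In Fos the treatment differences of the labels differed by -0.38 (SE 0.35, interval -1.18 to 0.43), and a difference between the labels was not shown. Nr4a1 stayed at that level with each array left out. Dusp1 left it without rIL-33 replicate 1, 2 or 3 and without PBS replicate 2 or 3, where it was -0.30 in the last case. Jun left it without rIL-33 replicate 1 and without PBS replicate 2 or 3.

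Levels by label, averaged over the treatments, were higher under C57BL/6 than under WT in 9 of the 10 genes (54.1% of all genes), Ier2 being the exception. After quantile or cyclic loess normalization Ier2 and Nr4a1 changed sign. Fos stood at 8.05 ± 0.60 under C57BL/6 and 7.68 ± 0.24 under WT (SD, n = 4 each), a difference of 0.36 (SE 0.18). Jun differed by 0.28 (SE 0.11), Junb by 0.29 (SE 0.10) and Dusp1 by 0.32 (SE 0.13), and these 3 were at an unadjusted limma p under 0.05 (18.0% of all genes). Without PBS replicate 3 none of the 3 stayed at that level, and the differences of Jun and Dusp1 were both 0.17. Jun also left it without PBS replicate 1, 2 or 4, Dusp1 without rIL-33 replicate 4 and PBS replicate 1 or 2, and Junb without rIL-33 replicate 2. Without rIL-33 replicate 1 there were 6 of the 10 at that level, and 3619 genes in either direction, against 4880 with all arrays. After quantile or cyclic loess normalization Junb alone did. None of the 10 passed the adjusted threshold, the smallest limma adjusted p being 0.0838 for Junb. The count of all genes past this threshold between the labels moved with every array left out: it was 10, 2510, 521 and 885 without rIL-33 replicates 1 to 4, and 52, 71, 46 and 18 without PBS replicates 1 to 4.

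Seen array by array, the highest and lowest levels of the 10 genes gathered on few arrays. Such places were not counted over all genes, so this is not shown to be particular to the 10. PBS replicate 2 was the highest of the 8 arrays in 5 genes, Fos, Jun, Junb, Egr1 and Dusp1. PBS replicate 1, of the same label, stood among the top 2 arrays in 7 genes. The lowest places went to rIL-33 replicate 1 in 4 genes (Fos, Fosb, Egr1 and Ier2) and to PBS replicate 3 in 4 others (Jun, Atf3, Dusp1 and Zfp36). Those 2 arrays also lay at opposite ends of the first principal component of all genes tested (-21.9 and 21.7). Expressed in SD units around each gene's mean, the average over the 10 genes was -0.70, 0.35, -0.31 and -0.26 on rIL-33 arrays 1 to 4, and 0.68, 0.97, -0.67 and -0.06 on PBS arrays 1 to 4. Treatment groups overlapped in this average, and the highest 2 arrays were both PBS arrays of the C57BL/6 label.

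**Figure D3:**
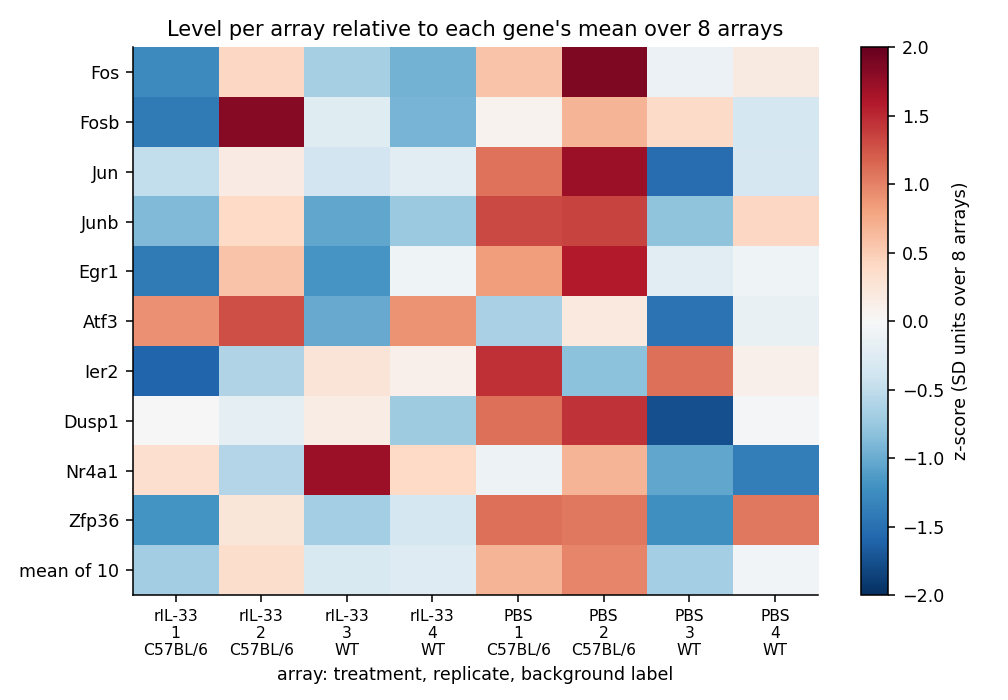
Level of each of the 10 genes, and their mean, per array in SD units around the gene's mean over 8 arrays (red above, blue below), with the rIL-33 arrays left of the PBS arrays. PBS replicates 1 and 2 are red in most genes, and Nr4a1, Atf3 and Ier2 do not share the pattern of the others.

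Over the arrays, some members went up and down with Fos and others did not. The 9 relations were computed with exact permutation tests (two-sided) and adjusted together. Egr1 followed Fos with a Pearson r of 0.91 (exact permutation p = 0.001835, adjusted p = 0.00826) and a Spearman rho of 0.93 (exact permutation p = 0.00223, adjusted p = 0.0201). Junb followed with r = 0.88 (exact permutation p = 0.00171, adjusted p = 0.00826) and rho = 0.86 (exact permutation p = 0.0107, adjusted p = 0.0482). Without PBS replicate 2 and rIL-33 replicate 1, the arrays farthest from the median of Fos, r was 0.74 for Egr1 and 0.87 for Junb (n = 6). Each label and each treatment holds 4 arrays, too few for an r of its own. With the label means removed, Egr1 had r = 0.89 and rho = 0.71 (exact permutation, adjusted p = 0.0332 and 0.259), and Junb r = 0.86 and rho = 0.79 (exact permutation, adjusted p = 0.0332 and 0.251), so rho no longer passed for either gene. Without the same 2 arrays r was then 0.37 for Egr1 and 0.69 for Junb, and the relation of Egr1 rests on those arrays. After quantile normalization the rho of Junb did not pass either (exact permutation, adjusted p = 0.0662). The treatment difference is part of these values.

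The remaining relations with Fos did not pass after adjustment, except after another normalization: r of Jun after quantile, r and rho of Jun after cyclic loess, and r of Zfp36 after cyclic loess. Zfp36 had r = 0.76 (rho = 0.71; exact permutation p = 0.0263 and 0.0576, adjusted p = 0.0788 and 0.104), and Jun r = 0.73 (rho = 0.76; exact permutation p = 0.0415 and 0.0368, adjusted p = 0.0935 and 0.0827). Without those 2 arrays Zfp36 had 0.65 and Jun 0.45. Fosb had r = 0.69 (rho = 0.79; exact permutation p = 0.0594 and 0.0279, adjusted p = 0.107 and 0.0827) and 0.63 without them. Dusp1 had r = 0.58 (rho = 0.48; exact permutation p = 0.128 and 0.243, adjusted p = 0.192 and 0.365) and 0.42 without them. Ier2 (r = 0.10, rho = 0.12), Atf3 (r = -0.10, rho = -0.10) and Nr4a1 (r = -0.16, rho = -0.14) had exact permutation p-values from 0.717 to 0.840, with adjusted values of 0.831 for r and 0.840 for rho, and r of 0.19, 0.0066 and -0.60 without them.

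**Figure D4:**
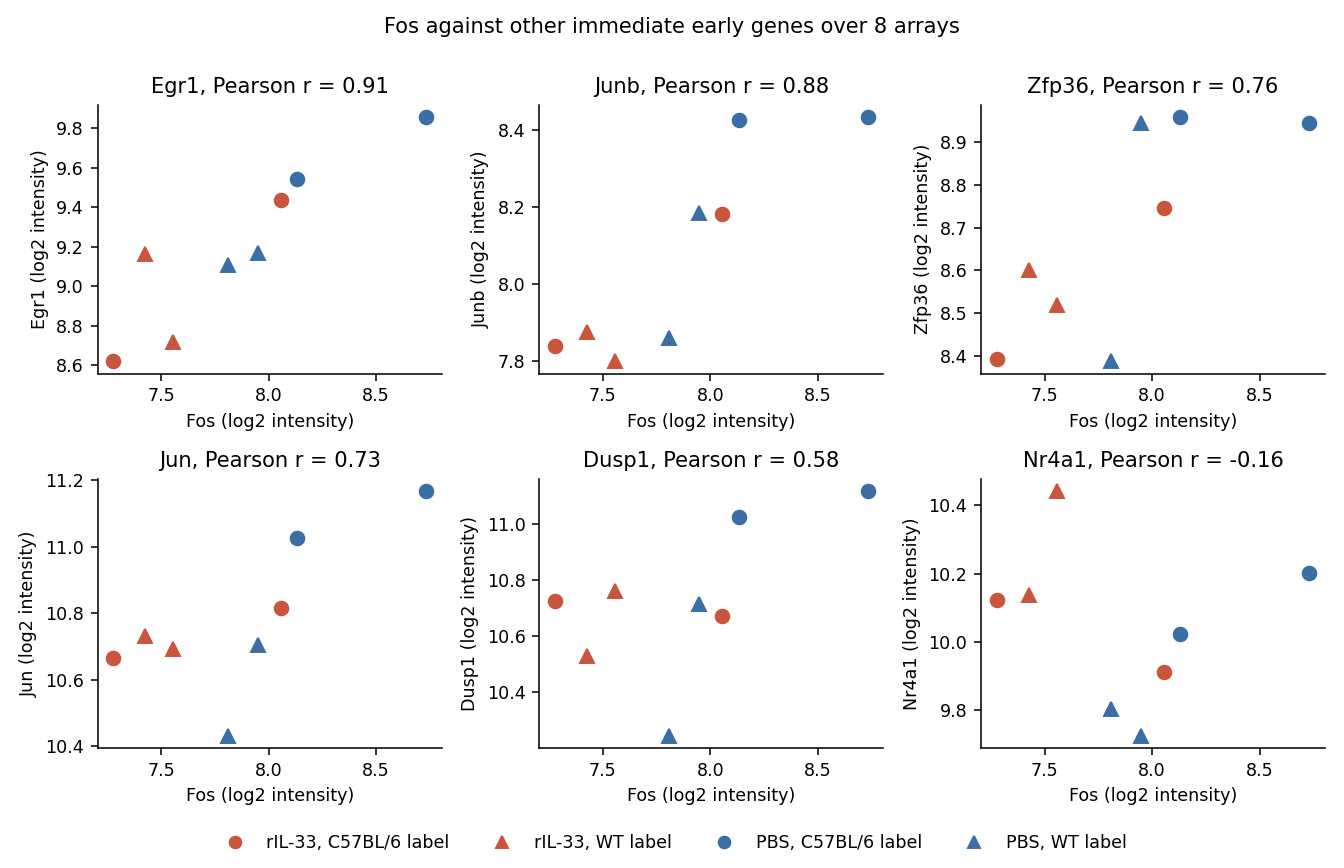
Fos (x axis) against Egr1, Junb, Zfp36, Jun, Dusp1 and Nr4a1 (y axes), all as log2 intensity, one point per array coloured by treatment and shaped by label. Egr1 and Junb rise with Fos over the 8 arrays (r of 0.91 and 0.88), and Nr4a1 does not (r of -0.16).

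Outside the list, the 10 genes whose 8-array profile lay closest to the mean profile of the members were Mettl27, Zfyve26, Plcd1, Msc, Klf10, Stn1, Fancd2, Scand1, Gpr160 and Gdpd5, with Pearson r from 0.971 down to 0.929. With so few arrays and so many genes this ranking is a description. Klf10, an early gene of TGF-beta signalling, was the 1 gene of these that also stood on the list of other rapid response genes. It had 8.56, 8.88, 8.89 and 8.84 with rIL-33 and 9.26, 9.33, 8.64 and 8.89 with PBS, again highest in PBS replicates 1 and 2. Its treatment difference was -0.24 (SE 0.15, limma adjusted p = 0.623). Msc encodes musculin, a repressor of myogenic transcription factors, and differed by -0.077 (SE 0.083). Among the members, r with the mean of the other 9 ran from 0.91 for Jun and Junb, 0.86 for Egr1, 0.83 for Fos, 0.82 for Zfp36, 0.72 for Dusp1 and 0.44 for Fosb down to -0.013 for Atf3, -0.092 for Nr4a1 and -0.11 for Ier2.

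Close relatives of the 10 were mostly lower with rIL-33 too, though none passed the threshold. Of 14 relatives tested, 13 were lower (52.0% of all genes), 5 of them at an unadjusted limma p under 0.05 (5.24% of all genes), with a median of -0.13. Within C57BL/6 13 were lower (54.7% of all genes) and within WT 9 (49.5%). Ier3, a survival gene induced by NF-kappaB, differed most and is also a known target of Zfp36. It had 7.02, 7.49, 7.49 and 7.54 with rIL-33 and 7.86, 7.78, 7.64 and 7.96 with PBS, without overlap, and differed by -0.42 (SE 0.12, limma adjusted p = 0.489). The 1 relative that was higher, Nr4a3, differed by 0.13 (SE 0.15). Chosen after their values were seen, the other 4 at that level were Zfp36l1 (-0.34, SE 0.14) and Zfp36l2 (-0.30, SE 0.12), the paralogs of Zfp36, the orphan receptor gene Nr4a2 (-0.33, SE 0.13) and the AP-1 repressor gene Jdp2 (-0.19, SE 0.08). Nr4a2 was thus lower in its mean where Nr4a1, of the same family, was higher.

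Of the other rapid response genes, 35 of 36 were tested (Npas4 was dim). They were lower in 23 (52.0% of all genes) and higher in 12, with a median of -0.07. At an unadjusted limma p under 0.05 stood 5, all lower (5.24% of all genes). Within C57BL/6 32 of the 35 were lower (54.7% of all genes), and within WT 17 (49.5%). The matricellular gene Ccn2 had the lowest difference, -0.38 (SE 0.24), and Tob1, an antiproliferative gene, the highest, 0.21 (SE 0.10). Between the labels 3 of the 35 (8.57%) passed the limma threshold, a share near the 9.40% of all genes: Rhob was higher under C57BL/6 by 0.42 (adjusted p = 0.0271) and Id1 by 0.33 (adjusted p = 0.0310), and the clock gene Per1 was lower by -0.46 (adjusted p = 0.0309). Inhibitors of MAP kinase signalling other than Dusp1 were lower in 9 of 13 (52.0% of all genes), by a median of -0.13. Dusp5 differed by -0.18 (SE 0.10) and Dusp8 by 0.20 (SE 0.09). The inhibitors were lower in 10 within C57BL/6 (54.7% of all genes) and in 7 within WT (49.5%). Of these 1 of 13 (7.69%), Spry2, passed between the labels, higher under C57BL/6 by 0.25 (limma adjusted p = 0.0386).

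Genes upstream of the 10 did not share their direction. Of 20 kinases and constitutive factors tested, 15 were higher with rIL-33 (48.0% of all genes), with a median of 0.08. Within C57BL/6 13 were higher (45.3% of all genes) and within WT 17 (50.5%). At an unadjusted limma p under 0.05 stood 1 of the 20 (9.63% of all genes in either direction). That gene, the ETS factor gene Elk3, was lower by -0.27 (SE 0.09, limma adjusted p = 0.489), and the JNK gene Mapk9 had the highest difference, 0.20 (SE 0.12). Srf, the factor that binds the CArG box, was chosen after its value was seen: it had 9.77, 9.74, 9.89 and 9.86 with rIL-33 and 9.74, 9.70, 9.58 and 9.62 with PBS, and differed by 0.15 (SE 0.07, limma adjusted p = 0.520). Heat shock and stress genes were lower in 8 of 10 (52.0% of all genes), with a median of -0.07. Within C57BL/6 they were lower in 4 of 10 (54.7% of all genes) and within WT in 7 of 10 (49.5%). They ran from Hmox1 at -0.36 (SE 0.26) to the chaperone gene Hsph1 at 0.27 (SE 0.09, limma adjusted p = 0.489).

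Of 8 unstable mRNAs known as Zfp36 targets in mouse macrophages, Csf2, Cxcl2, Il10 and Il6 were dim. The 4 tested, Ccl3, Ier3, Cxcl1 and Tnf, were all lower with rIL-33 (52.0% of all genes), in both labels too (33.6%). Their median was -0.33, and none passed the threshold. The chemokine gene Ccl3 had 8.67, 9.36, 7.95 and 8.35 with rIL-33 and 9.35, 9.24, 8.64 and 10.02 with PBS, and differed by -0.73 (SE 0.32, limma adjusted p = 0.512). Of the 4, 1 (25%, against 9.40% of all genes) passed between the labels: Cxcl1 was lower under C57BL/6 by -0.38 (limma adjusted p = 0.0443).

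**Figure D5:**
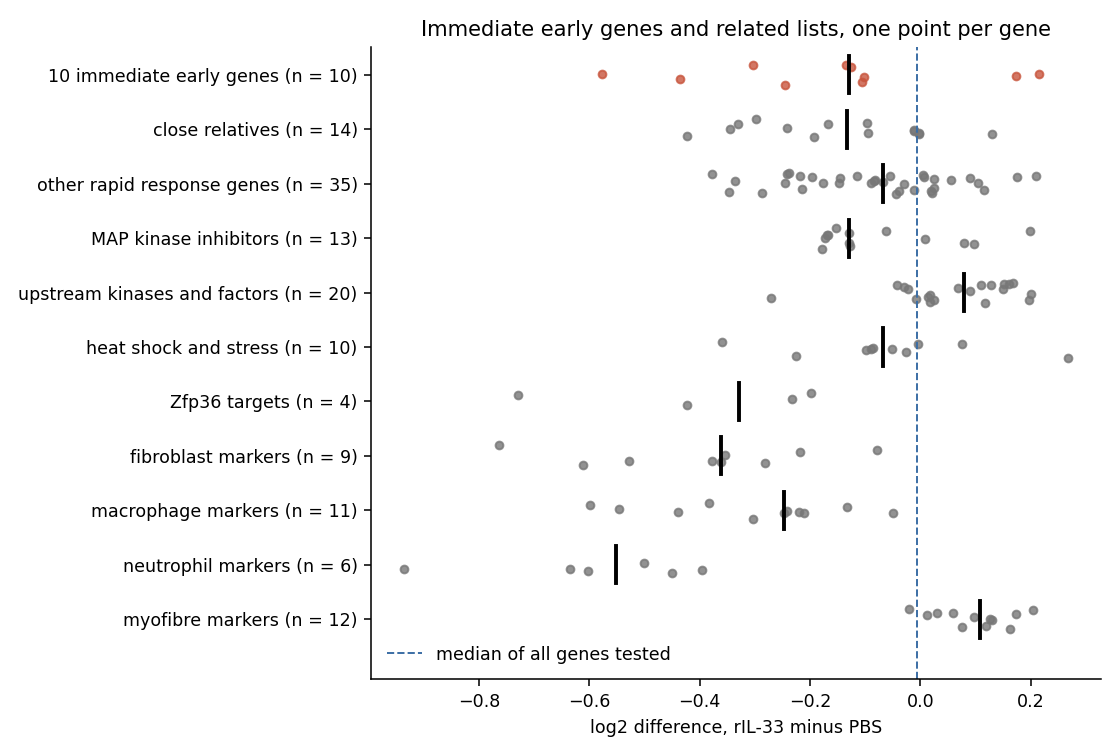
Log2 difference, rIL-33 minus PBS, of each tested gene (points) in the 10 immediate early genes, the related lists and marker lists of 4 cell types, with list medians as black bars and the median of all genes tested as a dashed line. The 10 genes and their close relatives both have a median of -0.13, and the upstream genes lie mostly above 0.

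Marker genes of several cell types are set beside these values. Of all genes tested, 52.0% were lower with rIL-33 and 48.0% higher. In whole muscle, fewer cells of a type and less RNA per cell cannot be told apart. All 9 fibroblast markers tested (of 10) were lower, with a mean level of 10.33 to 10.64 on the rIL-33 arrays and 10.74 to 11.03 on the PBS arrays. All 11 macrophage markers tested were lower, at 9.46 to 9.84 with rIL-33 and 9.76 to 10.18 with PBS. The 6 neutrophil markers tested (of 12) ran at 7.14 to 7.43 with rIL-33 and 7.07 to 9.01 with PBS, where replicates 3 and 4 stood at 8.20 and 9.01. Defining neutrophil genes S100a8, Ly6g and Cxcr2 were dim. Endothelial markers were lower in 9 of 11, smooth muscle markers in 6 of 8, satellite cell markers in 8 of 10 and lymphocyte markers in 5 of 5 tested (of 10), while myofibre markers were higher in 11 of 12 (median 0.11). The most extreme members were Lum (-0.76) for fibroblasts, Ms4a7 (-0.60) for macrophages, Ngp (-0.94) for neutrophils, Cd3g (-0.88) for lymphocytes, Eng (-0.33) and Vwf (0.21) for endothelium, Pdgfrb (-0.38) and Myh11 (0.14) for smooth muscle, Myog (-0.22) and Des (0.042) for satellite cells, Slc4a1 (-0.31) for red cells, of whose 10 markers 2 were tested, and Acta1 (-0.020) and Mylpf (0.20) for myofibres. Between the labels Mylpf, Tnni2 and Kdr passed the limma threshold, higher under C57BL/6 by 0.51, 0.31 and 0.35, and Ngp, lower by -1.52. The means of Ngp were 5.94 under C57BL/6 and 6.23 with rIL-33, both below the dim cut-off of 6.65. They were 7.46 under WT and 7.17 with PBS, where its SD was 1.61. Both differences of Ngp thus compare a dim level with a higher one, and their size is uncertain. Within C57BL/6 and within WT, fibroblast markers were lower in 9 and 8 of 9, macrophage markers in 11 and 10 of 11, neutrophil markers in 3 and 6 of 6, endothelial markers in 9 and 9 of 11, smooth muscle markers in 5 and 6 of 8, satellite cell markers in 8 and 5 of 10 and lymphocyte markers in 5 and 5 of 5. Of all genes tested, 54.7% were lower within C57BL/6 and 49.5% within WT, and several of these counts lie near those shares. Myofibre markers were higher in 7 of 12 within C57BL/6 (45.3% of all genes) and in 11 of 12 within WT (50.5%). None of these markers passed the threshold between the treatments in limma. Lower at an unadjusted limma p under 0.05 (5.24% of all genes) were 7 of 9 fibroblast, 5 of 11 macrophage and 4 of 11 endothelial markers. So were 2 of 8 smooth muscle, 1 of 6 neutrophil and 1 of 5 lymphocyte markers, but no satellite cell, red cell or myofibre marker. Higher at that level (4.39% of all genes) was 1 endothelial marker. The part of all these markers in the values of the immediate early genes was not tested.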

How the data were processed

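RNA of whole muscle was read on Affymetrix arrays (Mouse Gene 1.0 ST). Intensities, on a linear scale, were deposited for 24922 probe sets; the submitters' processing notes name RMA and Affymetrix Power Tools; no version is given in the sources used here. RMA equalises the arrays, and signal unrelated to the gene compresses folds of dim probe sets. The log2 of each intensity was taken first. The platform annotation gave 1 gene symbol to 21425 probe sets, several to 1399 and listed none for 2098. For each of 19752 genes the one-symbol probe set of highest mean was kept, and 4938 genes below the 25th percentile of means (6.65) were set aside as dim. Symbols of 5 list genes were updated through RefSeq synonyms, and 194 of 209 list genes had a value.

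All 14814 remaining genes were fitted with limma 3.58.1 (lmFit, eBayes; R 4.3.3), by treatment alone, by label with treatment as a covariate, and with 1 mean for each treatment and label (4 residual degrees of freedom) for contrasts within labels and their difference. The code was tested on simulated data. Arrays have no read depth, so precision depends on how many there are. The members and lists were chosen with earlier results of these data known. Named were all 10 members, from every other list the genes past the threshold and the most extreme one in each direction, and the 10 genes most alike in profile. As alternatives, the values were normalized again (by quantiles or by cyclic loess), the dim filter was dropped or raised to the 50th percentile, eBayes was run as trended and robust, arrays were weighted, a gene's probe sets were averaged or tested one by one, and further fits used blocks for label and replicate number, or left out each array. Plots were made in matplotlib 3.10.9 (Python 3.11.15), and exact permutation tests used SciPy 1.17.1.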

Additional observations from a re-analysis of the deposited data

Results flagged for a closer look

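In Jun, Dusp1 and Nr4a1 the treatment difference itself differed between the background labels at an unadjusted limma p under 0.05, and none of the 3 passed after adjustment over all genes (adjusted p = 0.999). The difference within C57BL/6 minus that within WT was -0.50 for Jun, -0.54 for Dusp1 and -0.62 for Nr4a1. Nr4a1 had means of 10.02 with rIL-33 and 10.11 with PBS within C57BL/6, and of 10.29 with rIL-33 and 9.76 with PBS within WT. Dusp1 had means of 10.70 with rIL-33 and 11.07 with PBS within C57BL/6, and of 10.65 with rIL-33 and 10.48 with PBS within WT. Jun had means of 10.74 with rIL-33 and 11.10 with PBS within C57BL/6, and of 10.71 with rIL-33 and 10.57 with PBS within WT.

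A single array stood apart from the other 3 of its group in 2 genes. In the rIL-33 arrays Atf3 was low in replicate 3, and the gap to the nearest array took 0.832 of the range of the group. In the PBS arrays Zfp36 was low in replicate 3, with a gap of 0.974 of the range. Both lie above Dixon's critical value for 4 samples, which chance exceeds in about 1 in 20 groups, and 20 groups were examined.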

How the results depend on the processing

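Under the settings other than leaving out an array, all 10 treatment differences kept their sign, and no member passed the adjusted threshold in limma under any setting; Fosb and Ier2 were not tested with the dim filter at the 50th percentile. The number of genes past the threshold between the treatments was 1, and 0 with a replicate block, where Fos differed by -0.58 with an adjusted p of 0.247; the lowest limma adjusted p of Fos over all settings was that one and the highest 1.00. Genes at an unadjusted p under 0.05 numbered 1427, with 804 (array weights) to 2327 (replicate block) under other settings and 639 (without rIL-33 replicate 1) to 1890 (without PBS replicate 2) with an array left out. The deviations of same-numbered arrays from their group means correlated at 0.44, -0.19, 0.43 and 0.54, and such arrays also share a label. From the means of group and label they correlated at -0.28, -0.28, 0.32 and 0.32. These values do not settle whether the numbers are pairs, and the main fit did not use them as pairs. With the replicate block Fos had an SE of 0.098 and an unadjusted limma p of 0.000412, against 0.21 and 0.0202 in the main fit. Ier2 lay near the dim cut-off, where signal over background limits the precision. Between the labels 1392 genes passed, against 376 after quantile and 421 after cyclic loess normalization, 892 with the dim filter at the 50th percentile and 3432 with array weights; 66.0% of them were higher under C57BL/6, and 76.5% after cyclic loess. After quantile and cyclic loess normalization Ier2 turned to 0.023 and 0.039 and Nr4a1 to -0.053 and -0.063 between the labels, and Ier2 to 0.0064 and 0.0155 within WT; the cause was not tested. Pearson's r with Fos passed after adjustment for Jun after quantile (0.81) and cyclic loess normalization (0.83) and for Zfp36 after cyclic loess (0.79). With each array left out in turn, 1 to 2 genes passed between the treatments, 10 to 2510 between the labels, 0 to 1 within C57BL/6 (0 with all arrays), 3 to 25 within WT (7) and 0 to 8 for the difference between the labels (0). Members whose sign turned in at least 1 of these fits are given by lowest and highest value. Between the treatments the ranges were -0.37 to 0.0072 for Fosb, -0.24 to 0.0063 for Jun and -0.28 to 0.011 for Dusp1. Between the labels the ranges were -0.039 to 0.41 for Fosb and -0.060 to 0.16 for Nr4a1. Within C57BL/6 the ranges were -0.62 to 0.50 for Fosb and -0.20 to 0.010 for Nr4a1. Within WT the ranges were -0.42 to 0.029 for Egr1, -0.033 to 0.29 for Atf3, -0.13 to 0.011 for Ier2, -0.068 to 0.40 for Dusp1 and -0.39 to 0.17 for Zfp36. For the difference between the labels the ranges were -0.77 to 0.012 for Fos, -0.41 to 0.71 for Fosb, -0.064 to 0.25 for Atf3, -0.29 to 0.021 for Ier2 and -0.56 to 0.0034 for Zfp36.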
